A study of Mus musculus with 12 samples.

Results

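The sterol and fatty acid synthesis genes described here are 37 listed mouse genes: the regulators of the pathways, the enzymes of cholesterol, fatty acid and triglyceride synthesis, and 4 genes of sterol transport and efflux. Their probes were found by gene name, with no threshold on measured values. The arrays held probes for 36 of the 37, and no probe carried the name Acat2, so that the genes described are 36 of the 37008 named genes on the arrays, with 77 probes among 56605. All 36 had a probe well above background on the 3 arrays of at least 1 group and were tested, as were 19761 named genes in all. Total RNA of 12 mouse heart samples was hybridised to Agilent one-colour arrays, with 3 arrays in each of 4 groups. TG+MI hearts came from mice that carry CCRR, a long non-coding RNA, as a transgene and had a myocardial infarction (MI). WT+MI hearts came from wild-type mice after infarction. TG and WT hearts came from transgenic and wild-type mice without infarction. The labels give the strain C57/BL6 for the WT+MI and WT groups only, so strain and transgene cannot be told apart. The labels state neither the promoter of the transgene nor the age of the mice, the delay from infarction to sampling or the sampled region of the heart. They also do not say whether the 3 samples of a group are separate animals, and the spread behind the p-values is that between samples, which may be technical.

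Cholesterol and fatty acids are built from acetyl-CoA in separate pathways that share a set of transcription factors, the sterol regulatory element binding proteins. SREBP-2, the product of Srebf2, acts mainly on sterol genes, and SREBP-1, the product of Srebf1, mainly on fatty acid genes. The escort protein Scap carries both out of the endoplasmic reticulum when sterols are scarce, and the Insig proteins hold them back when sterols are plentiful. Heart muscle lives mainly by burning fatty acids, and its malonyl-CoA, the building block of fatty acid synthesis, is best known there as a brake on the entry of fatty acids into mitochondria.

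The nuclear factor NF-Y, which acts together with SREBPs at many sterol genes, recognises the letters CCAAT, and the promoters of 5 sterol enzyme genes are shown because this motif recurs in them. RefSeq promoter sequences (GRCm38.p6) were at hand for 27 of the 36 genes, and the 250 bases before each start were searched on both strands for CCAAT, for TCACNCCAC, a form of the sterol regulatory element, and for the E-box CACGTG. These motifs do not overlap in the sequences shown. CCAAT was present in 18 of the 27 genes and in all 10 sterol enzyme genes with a promoter, against 37.5% of 27025 genes and 33.8% of 32851 promoters of the same length. TCACNCCAC was present in 1 of the 27 genes, Hmgcs1, against 1.22% of all genes and 1.05% of all promoters. CACGTG was present in 6 of the 27, against 6.86% of all genes and 6.02% of all promoters. In the sequences below, capitals mark these motifs on either strand, where CCAAT reads ATTGG on the other strand, and each sequence ends at the base before the annotated start.
Hmgcs1, chr13:119690101-119690350, plus strand: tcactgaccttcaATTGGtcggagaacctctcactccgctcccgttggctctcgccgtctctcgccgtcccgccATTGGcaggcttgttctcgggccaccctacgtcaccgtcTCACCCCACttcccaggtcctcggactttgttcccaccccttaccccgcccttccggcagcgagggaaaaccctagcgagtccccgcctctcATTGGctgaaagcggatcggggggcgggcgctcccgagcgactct
Mvk, chr5:114444019-114444268, plus strand: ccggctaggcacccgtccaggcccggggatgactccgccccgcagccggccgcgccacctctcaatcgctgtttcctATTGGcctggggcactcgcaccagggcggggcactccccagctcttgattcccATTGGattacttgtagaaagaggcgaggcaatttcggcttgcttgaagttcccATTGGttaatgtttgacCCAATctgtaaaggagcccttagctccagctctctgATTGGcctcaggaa
Lss, chr10:76531355-76531604, plus strand: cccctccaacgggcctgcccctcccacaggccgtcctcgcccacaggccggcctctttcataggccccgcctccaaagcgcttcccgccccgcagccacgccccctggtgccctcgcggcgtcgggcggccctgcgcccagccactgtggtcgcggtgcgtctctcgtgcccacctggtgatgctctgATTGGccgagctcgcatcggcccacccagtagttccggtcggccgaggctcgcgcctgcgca
Nsdhl, chrX:72918271-72918520, plus strand: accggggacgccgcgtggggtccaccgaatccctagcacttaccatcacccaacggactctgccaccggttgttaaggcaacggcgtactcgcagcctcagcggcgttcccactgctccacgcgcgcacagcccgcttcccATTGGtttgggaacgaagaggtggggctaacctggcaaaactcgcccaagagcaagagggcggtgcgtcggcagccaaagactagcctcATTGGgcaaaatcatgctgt
Hsd17b7, chr1:169969206-169969455, minus strand: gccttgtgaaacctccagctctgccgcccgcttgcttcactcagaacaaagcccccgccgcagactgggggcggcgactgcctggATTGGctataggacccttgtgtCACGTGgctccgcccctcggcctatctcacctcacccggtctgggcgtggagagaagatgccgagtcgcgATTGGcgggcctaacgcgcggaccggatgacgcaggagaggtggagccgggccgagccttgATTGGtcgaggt
Mvk has 5 CCAAT motifs in this window, Hmgcs1 and Hsd17b7 have 3 each, Nsdhl has 2 and Lss has 1. The TCACNCCAC match is the capital run of 9 bases in Hmgcs1, and the CACGTG match is in Hsd17b7. A match describes letters in a window and is no evidence that a factor was bound.

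A level below is log2 of a probe's processed intensity minus the log2 75th percentile of its array, so that 0 is the brightness below which 75% of probes lay. Levels of different genes come from different probes and are not set against each other. The 75th percentile was 138 to 260 intensity units, and 47.0% to 55.2% of probes were well above background on an array. No spot was saturated, and the number of arrays, 3 a group, limits the precision. All 8 cardiomyocyte markers were well above background on every array. The WT, WT+MI, TG 1 and TG 2 arrays lay on 1 slide and TG 3 and the TG+MI arrays on another, each slide with its own scan. TG 1 stood apart in markers of fat, and the TG arrays as a group in markers of atrium; both are given beside the results they touch. In whole hearts, fewer cells of a type and less RNA per cell cannot be told apart.

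**Figure D1:**
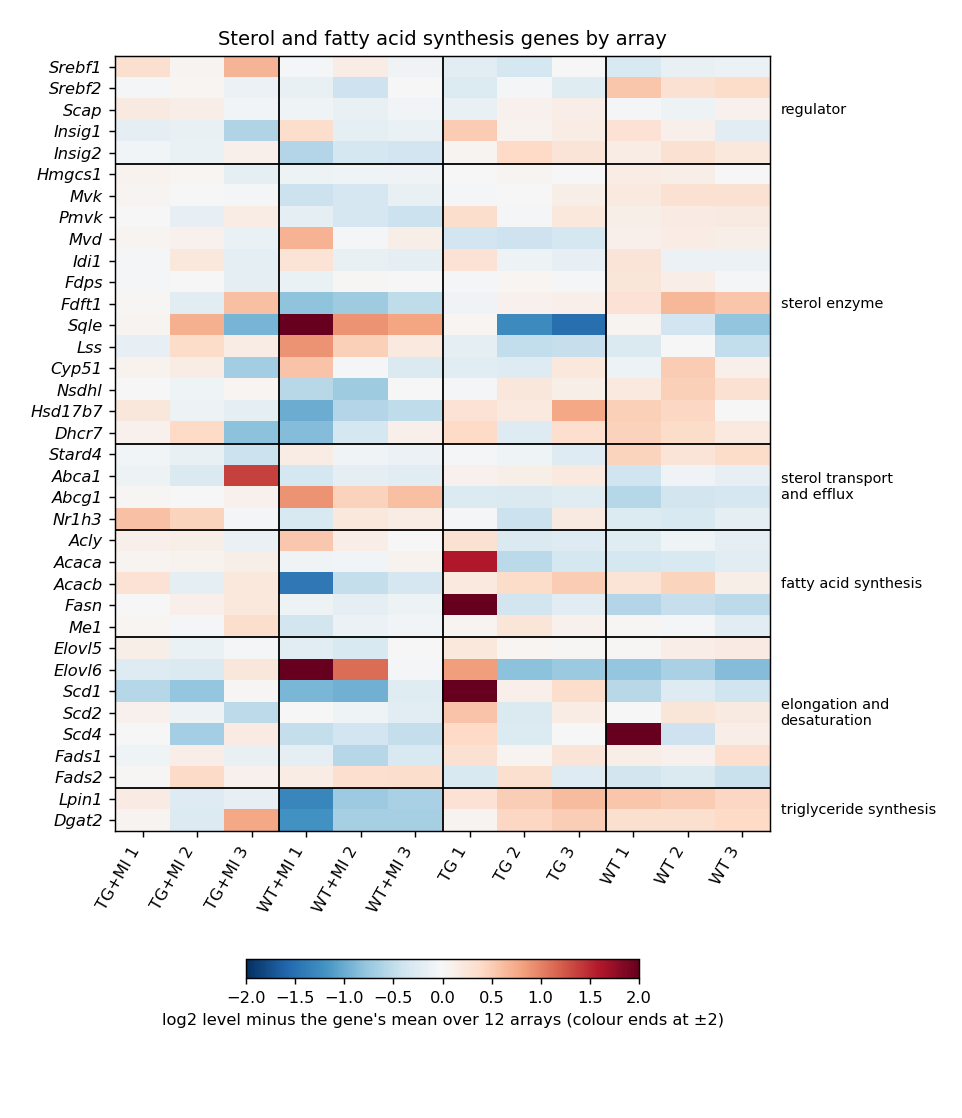
Level of each of the 36 genes on each of the 12 arrays, as the log2 level minus the gene's mean over all arrays (colour, ending at 2 in either direction), with arrays in columns by group and genes in rows by role. Lpin1, Dgat2 and Fdft1 are blue on the 3 WT+MI arrays, Sqle and Abcg1 are red there, and Fasn, Scd1 and Acaca are red on TG 1.

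After infarction in wild-type mice, sterol enzymes differed in both directions, as genes did across the arrays as a whole. Squalene epoxidase and lanosterol synthase, which act one after the other, had higher signals on their brightest probes, and mevalonate kinase, squalene synthase and late enzymes had lower ones. The 2 triglyceride synthesis genes, Lpin1 and Dgat2, both fell, to signals 2.62-fold and 2.29-fold lower in WT+MI than in WT hearts, and the cholesterol exporter Abcg1 rose 2.11-fold. Across the pathway, 17 of 36 genes passed an adjusted p of 0.05 (limma, Benjamini-Hochberg over 19761 genes) in WT+MI against WT, 5 higher and 12 lower, which is 47.2% of the genes and stands beside 47.9% of all genes tested. Of all genes tested, 18.6% were higher and 29.3% lower, against 13.9% and 33.3% of these genes. The median difference was -0.17 over the 36 genes and -0.14 over all genes tested. The share and the median thus lay near the background, and what follows describes single genes.

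**Figure D2:**
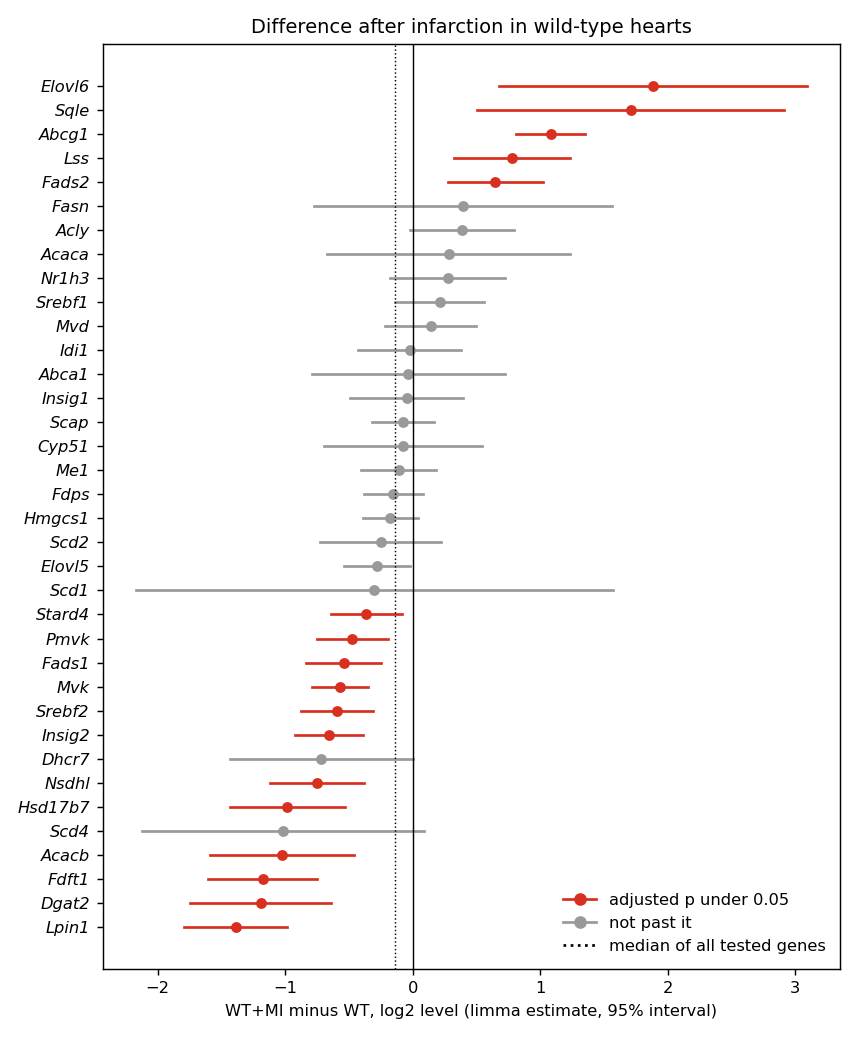
Difference in log2 level between WT+MI and WT hearts for each of the 36 genes (points) with its 95% interval (lines), ordered by size, with genes past an adjusted p of 0.05 in red. The 17 red genes run from -1.39 for Lpin1 to 1.88 for Elovl6.

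Among the 5 regulators, the brightest probes of 2 fell after infarction in wild-type hearts, those of Insig2 and Srebf2, and 3 did not pass. That is 0% higher and 40% lower, beside 18.6% and 29.3% of all genes tested. Insig2, which retains the SREBP escort complex in the endoplasmic reticulum, had levels of 3.14, 3.06 and 3.30 in TG+MI, 2.61, 2.85 and 2.82 in WT+MI, 3.24, 3.60 and 3.46 in TG and 3.34, 3.51 and 3.41 in WT hearts. The WT+MI arrays were the 3 lowest of the 12, and the difference from WT was -0.66 ± 0.12 (log2, standard error, adjusted p = 0.00177). All 3 of its probes that were well above background had lower means in WT+MI hearts, with differences of -0.66, -0.57 and -0.32. Its companion Insig1, itself a target of SREBPs, had -3.18, -3.16 and -3.61 in TG+MI, -2.65, -3.21 and -3.14 in WT+MI, -2.51, -2.94 and -2.86 in TG and -2.72, -2.91 and -3.22 in WT hearts, and its groups overlapped (difference -0.05, 95% interval -0.49 to 0.40, adjusted p = 0.856). Srebf1 had 3.74, 3.48 and 4.11 in TG+MI, 3.40, 3.58 and 3.36 in WT+MI, 3.22, 3.08 and 3.42 in TG and 3.12, 3.27 and 3.31 in WT hearts. All 3 WT+MI values of Srebf1 lay above the WT values, but the difference of 0.21 did not pass (adjusted p = 0.293), and Scap differed by -0.08 (adjusted p = 0.590).

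Srebf2 depended on the probe. The brighter probe, at chr15:82035495-82035554 (mm9), read 0.18, 0.26 and 0.11 in TG+MI, 0.08, -0.19 and 0.22 in WT+MI, -0.06, 0.20 and -0.02 in TG and 0.78, 0.52 and 0.59 in WT hearts. WT was above the other 3 groups, and the difference of WT+MI from WT was -0.59 ± 0.13 (adjusted p = 0.00405). A second probe, at chr15:82034765-82034824 (mm9), read -2.0, -2.01 and -2.27 in TG+MI, -1.35, -1.74 and -1.87 in WT+MI, -2.38, -2.62 and -2.64 in TG and -2.0, -2.84 and -2.53 in WT hearts. On this probe the same comparison gave 0.80 (adjusted p = 0.0105 over all passing probes), a call in the other direction from a probe that was also well above background on all 12 arrays. No direction is therefore given for Srebf2 as a gene, and values below are those of the brighter probe.

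Of the 13 sterol enzymes measured, 2 rose in WT+MI hearts, 5 fell and 6 did not pass, or 15.4% higher and 38.5% lower, beside 18.6% and 29.3% of all genes tested. Sqle, squalene epoxidase, which adds the first oxygen on the way to the sterol ring, had -1.65, -1.0 and -2.65 in TG+MI, 0.62, -0.82 and -0.92 in WT+MI, -1.68, -2.99 and -3.21 in TG and -1.65, -2.09 and -2.51 in WT hearts. The WT+MI values were above all 3 WT values, by 1.71 ± 0.54 (adjusted p = 0.0249), with a wide spread. Without WT+MI 1, the highest array, the difference was 1.21 and did not pass (adjusted p = 0.100). Nor did it pass without WT 2 (1.71, adjusted p = 0.0600) or WT 3 (1.5, adjusted p = 0.0815). Lss, lanosterol synthase, which closes the ring, had -0.67, -1.09 and -1.38 in WT+MI hearts, against -1.86, -1.57 and -2.06 in WT hearts. The arrays did not overlap and the difference was 0.78 ± 0.21 (adjusted p = 0.0104). A dimmer probe of Lss gave -0.36 (adjusted p = 0.331).

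Fdft1, squalene synthase, the first enzyme committed to sterols, fell most among the sterol enzymes, with levels of 2.61, 2.38 and 3.20 in TG+MI, 1.79, 1.89 and 2.08 in WT+MI, 2.52, 2.68 and 2.69 in TG and 2.88, 3.26 and 3.14 in WT hearts. The 3 WT+MI values were the 3 lowest of the 12 arrays, and WT+MI differed from WT by -1.17 ± 0.19, a 2.26-fold lower signal (adjusted p = 0.000991). Its second probe gave -1.33 (adjusted p = 0.000864). The enzyme that makes squalene therefore had a lower signal and the enzyme that consumes it a higher one on the same arrays. Hsd17b7, a ketoreductase that works on sterols after lanosterol, had 1.89, 2.31 and 2.39 in WT+MI hearts, against 3.37, 3.30 and 2.88 in WT hearts. The difference was -0.99 ± 0.20 (adjusted p = 0.00317), and its 3 probes had the same sign. Nsdhl, the sterol dehydrogenase that works beside it, had -2.48, -2.63 and -1.94 in WT+MI hearts, against -1.73, -1.45 and -1.62 in WT hearts, without overlap (difference -0.75 ± 0.17, adjusted p = 0.00464). A second probe of Nsdhl gave -0.28 (adjusted p = 0.411). Both are among the genes whose promoters are printed above.

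Mvk, mevalonate kinase, had 2.21, 2.15 and 2.14 in TG+MI, 1.74, 1.83 and 2.01 in WT+MI, 2.12, 2.15 and 2.28 in TG and 2.36, 2.47 and 2.47 in WT hearts. Its WT+MI values were the 3 lowest and differed from WT by -0.57 ± 0.10 (adjusted p = 0.00139), while its second probe gave -0.12 (adjusted p = 0.616). Pmvk, the next kinase of the pathway, also fell, with a difference of -0.47 (adjusted p = 0.0108). Hmgcs1, which makes the HMG-CoA from which mevalonate is formed and is the gene with the sterol element printed above, had 3.22, 3.20 and 2.96 in TG+MI, 3.05, 3.07 and 3.08 in WT+MI, 3.17, 3.21 and 3.16 in TG and 3.30, 3.26 and 3.16 in WT hearts. WT+MI lay just below WT on every array, but the difference of -0.18 (95% interval -0.39 to 0.04) did not pass (adjusted p = 0.155). Among the others, Dhcr7, which performs the last step to cholesterol, differed by -0.72 (adjusted p = 0.0913), and Mvd, Idi1, Fdps and Cyp51, a decarboxylase, an isomerase, a prenyl transferase and a demethylase of the pathway, lay between -0.15 and 0.14 with no call.

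Of the 4 transport and efflux genes, Abcg1 rose, Stard4 fell and 2 did not pass, or 25% in each direction, beside 18.6% and 29.3% of all genes tested. Abcg1, which exports cholesterol to high-density lipoprotein and is known from macrophages, had 0.40, 0.38 and 0.47 in TG+MI, 1.29, 0.85 and 0.99 in WT+MI, 0.12, 0.09 and 0.15 in TG and -0.18, 0.02 and 0.06 in WT hearts. The 3 WT+MI values were the highest of the 12 arrays, 1.08 ± 0.12 above WT (adjusted p = 0.000194), the smallest adjusted p among the 36 genes in this comparison. Abca1, which exports cholesterol to lipid-poor apolipoprotein and is, like Abcg1, a known target of the oxysterol receptor LXR, had 1.54, 1.36 and 3.02 in TG+MI, 1.29, 1.47 and 1.43 in WT+MI, 1.74, 1.77 and 1.85 in TG and 1.25, 1.57 and 1.48 in WT hearts. WT+MI and WT overlapped on Abca1 (difference -0.03, 95% interval -0.79 to 0.72), and TG+MI 3 stood alone at 3.02. Nr1h3, which encodes LXR alpha, differed by 0.27 (adjusted p = 0.295). Stard4, a carrier of cholesterol inside the cell, was -0.36 (adjusted p = 0.0346). That call was lost when any of WT 1, WT 3, WT+MI 2 or WT+MI 3 was left out, with differences of -0.32, -0.36, -0.33 and -0.31.

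In the fatty acid arm, the largest drop among the synthesis genes was in Acacb, the acetyl-CoA carboxylase at the mitochondrial surface whose malonyl-CoA restrains fatty acid burning. Acacb had 4.99, 4.52 and 4.92 in TG+MI, 3.27, 4.23 and 4.36 in WT+MI, 4.90, 5.07 and 5.21 in TG and 4.97, 5.14 and 4.82 in WT hearts. WT+MI 1 was the lowest, and all 3 WT+MI arrays lay below all 9 others, with a difference from WT of -1.03 ± 0.25 (adjusted p = 0.00782). Its other probes gave -0.40 and -0.82. Acaca and Fasn, the cytosolic carboxylase and the synthase that make palmitate, did not pass in the fit of all 12 arrays. Fasn had 4.02, 4.12 and 4.24 in TG+MI, 3.92, 3.83 and 3.92 in WT+MI, 6.26, 3.65 and 3.82 in TG and 3.43, 3.56 and 3.5 in WT hearts. The 3 WT+MI values of Fasn lay above the 3 WT values by 0.39 ± 0.53 (adjusted p = 0.562). Without the 1 high TG array, the same difference of 0.39 had a standard error of 0.10 and passed for Fasn (adjusted p = 0.00956), as did 0.28 for Acaca (adjusted p = 0.0320), and 19 genes were then called. Acly, which supplies cytosolic acetyl-CoA, differed by 0.39 (adjusted p = 0.105) and Me1, which supplies NADPH, by -0.11 (adjusted p = 0.519).

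Among the 7 elongases and desaturases, 2 rose, 1 fell and 4 did not pass, or 28.6% higher and 14.3% lower, beside 18.6% and 29.3% of all genes tested. Elovl6, which lengthens palmitate, had the largest difference of the 36 genes, with levels of -0.45, -0.48 and 0.03 in TG+MI, 2.08, 0.92 and -0.23 in WT+MI, 0.64, -1.01 and -0.94 in TG and -0.97, -0.85 and -1.07 in WT hearts. The 3 WT+MI arrays covered more than 2 log2 units and all lay above WT, by 1.88 ± 0.54 (adjusted p = 0.0162). Without WT+MI 1 the difference was 1.31 and did not pass (adjusted p = 0.0604). Fads2, a desaturase of polyunsaturated fatty acids, had -1.24, -1.05 and -1.04 in WT+MI hearts, against -1.75, -1.67 and -1.83 in WT hearts, without overlap (difference 0.64 ± 0.17, adjusted p = 0.0101), but a dimmer probe, well above background on no WT+MI array, gave -0.84. Its partner Fads1 fell, with differences of -0.54 (adjusted p = 0.00744) and -0.63 on its second probe. Scd1, the desaturase that makes oleate, had -1.48, -1.68 and -0.89 in TG+MI, -1.83, -1.87 and -1.15 in WT+MI, 3.27, -0.81 and -0.56 in TG and -1.47, -1.17 and -1.31 in WT hearts, with no call (difference -0.30, 95% interval -2.17 to 1.57). Elovl5 and Scd2 differed by -0.28 and -0.25, and Scd4 by -1.02 (adjusted p = 0.115). The Scd4 probe's row also lists transcripts of 3 other genes, so its signal may not be of Scd4 alone.

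The triglyceride genes were lower in WT+MI than in WT hearts on every array. Lpin1, a phosphatidate phosphatase that provides diacylglycerol, had 2.92, 2.49 and 2.59 in TG+MI, 1.45, 2.03 and 2.11 in WT+MI, 3.05, 3.25 and 3.39 in TG and 3.31, 3.27 and 3.17 in WT hearts. The WT+MI values were the 3 lowest, with a difference from WT of -1.39 ± 0.18, 2.62-fold lower (adjusted p = 0.000375). Its 4 probes gave -1.39, -1.5, -0.62 and -0.30. Dgat2, which joins the last fatty acid to diacylglycerol, had 6.94, 6.61 and 7.67 in TG+MI, 5.68, 6.23 and 6.22 in WT+MI, 6.94, 7.30 and 7.38 in TG and 7.20, 7.22 and 7.28 in WT hearts. Again WT+MI was below the other 3 groups without overlap, -1.19 ± 0.25 from WT (adjusted p = 0.00336).

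Of the 17 calls, 12 were of genes with more than 1 probe well above background, and in 9 of those 12 every probe had the same sign. Srebf2, Lss and Fads2 were the exceptions. The same 17-gene count came from a fit with slide as a block and from the arrays of the first slide alone, since all WT+MI and WT arrays lay on that slide. Markers of blood cells moved with the infarction. Of 5 neutrophil markers 4 rose, with summed linear signals, relative to the array's 75th percentile, of 305 to 501 in WT+MI and 139 to 156 in WT hearts; all 5 were above background on every WT+MI array and 3 on every WT array. Of 8 macrophage markers 2 rose, with sums of 160 to 258 in WT+MI and 128 to 165 in WT hearts, and all 8 were above background on every array. The array WT+MI 1, highest for Sqle and Elovl6, was also highest of its group in atrial markers, with a summed signal of 677, where WT+MI 2 and WT+MI 3 had 307 and 235 and WT hearts 54.5 to 55.9. WT+MI 1 was likewise highest of its group in neutrophil markers (501, with 305 and 307 on WT+MI 2 and 3), macrophage markers (258, with 237 and 160) and hepatocyte markers (9.87, with 7.26 and 0.346). Of 6 fibroblast markers 3 fell, and of 5 endothelial markers 2. Of the 8 cardiomyocyte markers 3 fell, with sums of 2234 to 2976 in WT+MI and 2827 to 3610 in WT hearts. Among 4 hepatocyte markers 2 rose, with albumin, Alb, at 2.53, 1.88 and -4.17 in WT+MI hearts and -5.56, -4.78 and -5.97 in WT hearts, high on 2 of the 3 WT+MI arrays, while Apoa1 was above background on no array. Beside these marker counts, 18.6% of all genes tested rose and 29.3% fell. The part of these cells in the differences was not tested.

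**Figure D3:**
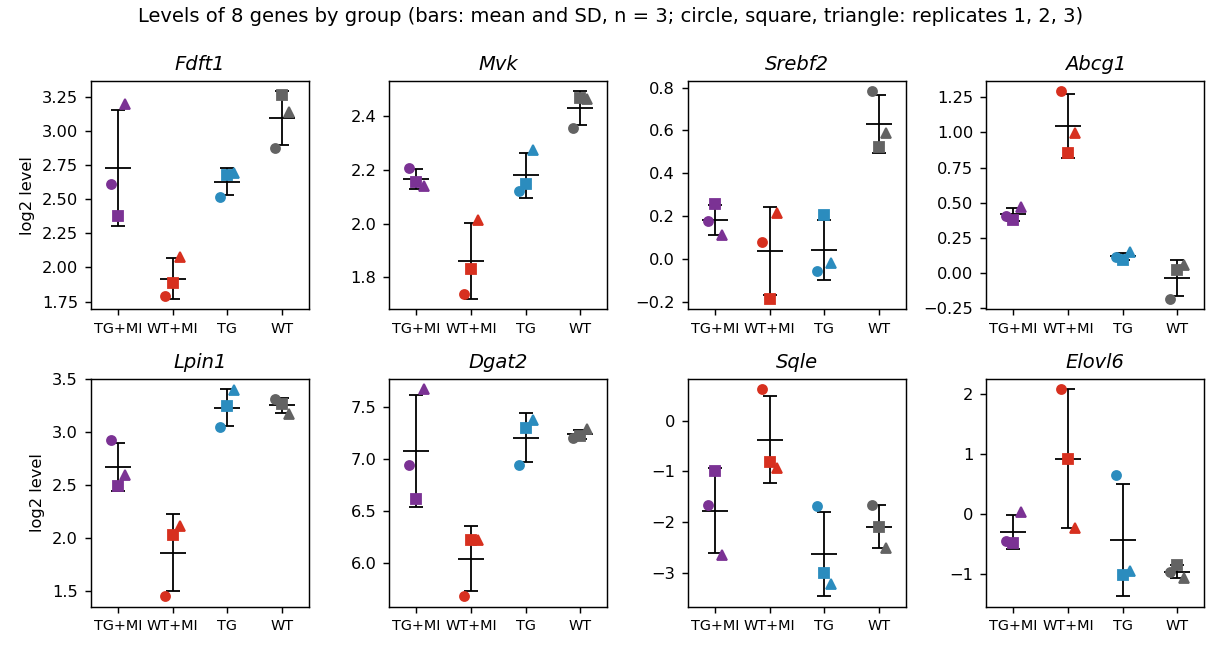
Levels (log2, relative to the array's 75th percentile) of 8 genes on each array, by group, with bars at the group mean and its SD (n = 3 arrays). For Lpin1, Dgat2 and Fdft1 the WT+MI points lie below the 3 other groups, and for Abcg1 above them.

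Genes next to the 36 in the same pathways moved in both directions as well. Of 33 listed, 32 were tested and Elovl3 was not. In WT+MI against WT hearts 9 rose (28.1%) and 7 fell (21.9%), beside 18.6% and 29.3% of all genes tested. Ch25h, which makes an oxysterol from cholesterol, had 4.40, 3.32 and 3.11 in WT+MI hearts, against -1.12, -1.49 and -1.0 in WT hearts (difference 4.81 ± 0.42, adjusted p = 6.11e-05). Soat1, which esterifies cholesterol, had 1.80, 1.09 and 0.89 in WT+MI hearts, against -1.28, -1.38 and -1.05 in WT hearts (difference 2.5 ± 0.30, adjusted p = 0.000250). Plin2, a coat protein of lipid droplets, was 1.70 higher (adjusted p = 0.000269). Elovl7, an elongase of long saturated chains, was well above background on none of the 3 WT arrays, so that its difference of 1.55 (adjusted p = 0.00346) is given as at least 2.80-fold higher in WT+MI hearts. Elovl7 entered the test only through other groups than WT, so no conclusion is drawn from its call. These 4 are the largest of the 9 increases, among which are also Lpin2 and Lpin3, given below. Among the genes called, the largest decreases were in Mlxipl, which encodes the sugar-responsive factor ChREBP (-1.60 ± 0.18, adjusted p = 0.000198), Pltp, the phospholipid transfer protein (-1.45, adjusted p = 0.00163), Gpam, which starts glycerolipid synthesis (-1.27, adjusted p = 0.000532), and Tm7sf2, a sterol reductase (-0.86, adjusted p = 0.000534). Gpam, Lpin1 and Dgat2 act at successive steps of triglyceride assembly, but other genes of those steps, named after their values were seen, did not all fall. Lpin2 and Lpin3, relatives of Lpin1, rose by 1.30 (adjusted p = 0.000375) and 0.92 (adjusted p = 0.00699), Agpat2, an acyltransferase between Gpam and the lipins, fell, with a difference of -0.56 (adjusted p = 0.00794), and Dgat1, which performs the same step as Dgat2, differed by 0.06 (95% interval -0.13 to 0.25).

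The transgene without infarction was compared in TG against WT hearts. Here 1 of 36 genes passed, 2.78%, beside 2.62% of all genes tested, and 0% were higher and 2.78% lower, beside 1.49% and 1.13%. The median difference was 0.01, beside -0.06. The call was the brighter probe of Srebf2, with the values given above: TG differed from WT by -0.59 ± 0.13 (adjusted p = 0.0415), the second probe by -0.09 (adjusted p = 0.867). It did not pass with slide as a block (-0.56, adjusted p = 0.0988), on the first slide alone (-0.56, adjusted p = 0.120) or without any 1 of the 6 WT and TG arrays, where it lay between -0.67 and -0.51. No sterol enzyme passed on its brightest probe, with differences from -0.54 for Sqle to 0.13 for Hsd17b7, and Stard4 was -0.48 (adjusted p = 0.0793). The second probe of Nsdhl was called lower in TG than in WT hearts (adjusted p = 0.0286 over all passing probes). It was well above background on no TG array and on all 3 WT arrays. This probe entered the test only through the WT group, where it was high, so no conclusion is drawn from its call. Of the 32 related genes 0 passed in limma (3 at an unadjusted p under 0.05). Lpin1 and Dgat2 differed by -0.02 (95% interval -0.43 to 0.38) and -0.03 (95% interval -0.58 to 0.52).

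Fasn, Scd1, Acaca and Elovl6 were each highest among the TG arrays on TG 1. Fasn read 6.26 there and Scd1 3.27, against at most 3.82 and -0.56 on the other two TG arrays, and Acaca read 3.17, 1.03 and 1.22 in TG hearts. The fat cell genes were high on the same array: Adipoq, which encodes adiponectin, had -2.79, -5.44 and -5.49 in TG+MI, -4.42, -5.38 and -3.27 in WT+MI, 3.33, -1.61 and -1.13 in TG and -5.37, -1.89 and -4.0 in WT hearts. Cidec, a lipid droplet protein, had 4.48, -0.19 and 0.51 in TG hearts, against -6.11, -1.73 and -3.85 in WT hearts. The summed signal of the 8 adipocyte markers was 313 on TG 1, 187 and 195 on the other TG arrays and 167 to 192 in WT hearts. Of the 8, 6 were above background on every TG array and 3 on every WT array. Over the 6 tested, the median difference was 3.67, beside -0.06 over all genes tested (0 called in limma, 4 at an unadjusted p under 0.05). For 4 of the 6 every TG value, not that of TG 1 alone, lay above every WT value, and for 1 below. Some could be tested only through TG hearts, where they were high, so no conclusion is drawn from that median. With all arrays Fasn differed by 1.08 and Scd1 by 1.95 between TG and WT hearts. Without TG 1 they differed by 0.24 (adjusted p = 0.439) and 0.63 (adjusted p = 0.397), and none of these passed. Markers of atrium stood apart in the TG hearts as well. Myl7, the atrial myosin light chain, had 0.59, 4.70 and -4.28 in TG+MI, 6.68, -4.47 and -4.02 in WT+MI, 8.03, 5.96 and 7.97 in TG and -0.91, -0.97 and -4.93 in WT hearts. Of 4 tested atrial markers 2 rose in TG against WT hearts, and the summed signal of the 5 was 477 to 1495 in TG and 54.5 to 55.9 in WT hearts. On every TG array 4 of the 5 were above background, and on every WT array 2. Atrial markers could thus be tested through the TG hearts alone, and no conclusion is drawn from these 2 calls. Other lists also differed from the median of -0.06 over all genes tested. The median was -0.37 for cardiomyocytes, 0.57 for fibroblasts and -0.16 for endothelium, with 0 markers called in limma. At an unadjusted p under 0.05 there were 3, 3 and 2. For macrophages it was 0.34 (1 of 8 called, higher) and for neutrophils -1.62 (1 of 5 called, lower). The part of atrial tissue, fat tissue or these cells in the values of the lipid genes was not tested.

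**Figure D4:**
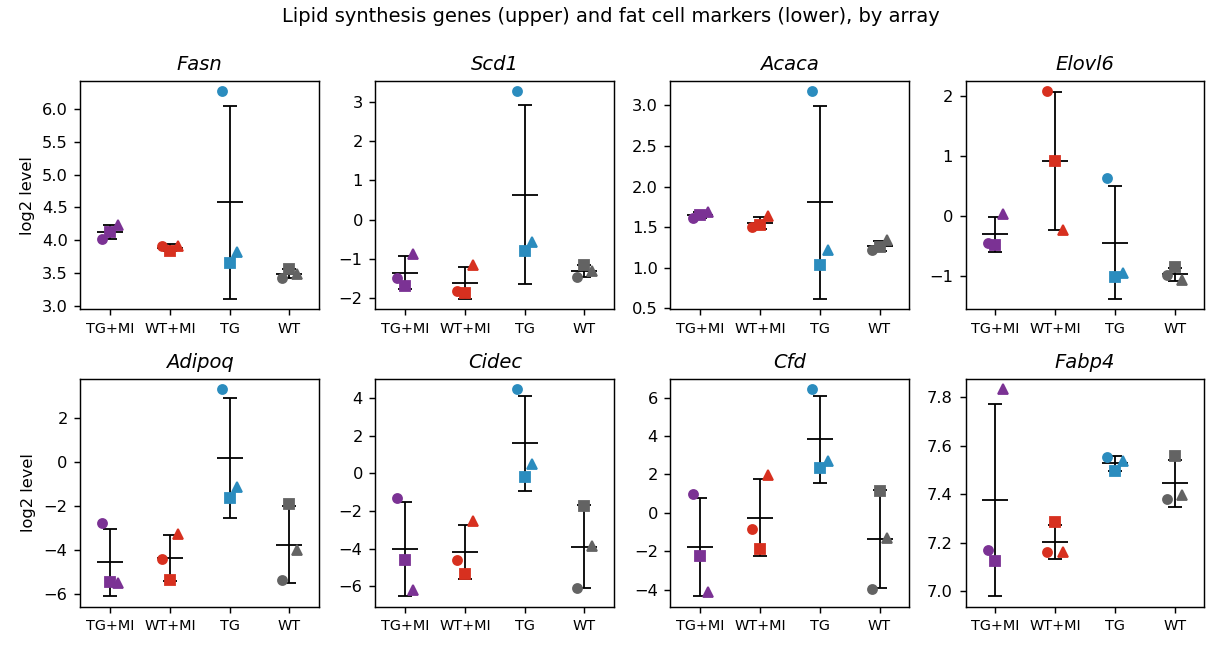
Levels (log2, relative to the array's 75th percentile) of 4 lipid synthesis genes (upper row) and 4 fat cell markers (lower row) on each array, by group, with bars at the group mean and its SD (n = 3 arrays). TG 1 (blue circle) is the highest array for Fasn, Scd1 and Acaca and for Adipoq, Cidec and Cfd, but not for Elovl6 or Fabp4.

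With infarction in both genotypes, the triglyceride genes and squalene synthase had higher signals and Abcg1 a lower signal in TG+MI than in WT+MI hearts. Of the 36 genes 4 passed, 3 higher and 1 lower, which is 11.1% beside 12.2% of all genes tested. By direction, 8.33% were higher and 2.78% lower, beside 7.79% and 4.38% of all genes. The median difference was 0.21, beside 0.09. All TG+MI arrays lay on the second slide and all WT+MI arrays on the first, and the slide effect can be estimated only from TG 3 against TG 1 and TG 2. With slide as a block, limma called 0 of the 36 genes (1 at an unadjusted p under 0.05) and 0 of 19761 (1469 at an unadjusted p under 0.05). Among the called genes, Dgat2 had 6.94, 6.61 and 7.67 in TG+MI hearts, against 5.68, 6.23 and 6.22 in WT+MI hearts, without overlap. The difference of 1.03 ± 0.25 (adjusted p = 0.0340) was 0.78 with the block (adjusted p = 0.703) and 0.74 without TG+MI 3 (adjusted p = 0.0778). Lpin1 had 2.92, 2.49 and 2.59 in TG+MI hearts, against 1.45, 2.03 and 2.11 in WT+MI hearts. The difference was 0.81 ± 0.18 (adjusted p = 0.0302), with the block 0.56 (adjusted p = 0.700), and 0.97, 0.68 and -0.11 on its other probes. Fdft1 differed by 0.81 ± 0.19 (adjusted p = 0.0331), and with the block by 0.71 (adjusted p = 0.672). Its second probe gave 0.82, and the first gave 0.57 without TG+MI 3 (adjusted p = 0.0762). Abcg1, at 0.38 to 0.47 in TG+MI and 0.85 to 1.29 in WT+MI hearts, differed by -0.63 ± 0.12 (adjusted p = 0.0270), and with the block by -0.67 (adjusted p = 0.648).

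The calls between the infarcted groups turned on single arrays, among these genes as over all genes tested. None of the 36 genes passed when WT+MI 1, TG+MI 1 or TG+MI 3 was left out (10, 9 and 11 at an unadjusted p under 0.05), and 8 passed without WT+MI 3. Of all 19761 genes tested, 45, 0 and 4 passed in limma under the same omissions (4604, 5313 and 5727 at an unadjusted p under 0.05). Without WT+MI 3, 2927 passed, and with all arrays 2405. Over all genes tested, background correction with normexp gave 3089 calls. Among the 36 genes it gave 10 calls, 9 higher and 1 lower, among them Hsd17b7, Insig2, Acacb, Mvk, Pmvk and Me1. Without that correction, the brightest probes of these genes lay at 0.67 (adjusted p = 0.0549), 0.41 (0.0524), 0.86 (0.0512), 0.31 (0.0659), 0.31 (0.114) and 0.30 (0.145). Another probe passed without it for Insig2, at 0.41 (adjusted p = 0.0387 over all passing probes), and for Acacb, at 0.71 (adjusted p = 0.0427). Sqle and Elovl6, the most variable of the WT+MI group, differed by -1.39 (95% interval -2.60 to -0.19) and -1.22 (95% interval -2.43 to -0.02), with no call. Fasn differed by 0.24 (95% interval -0.93 to 1.40) and Srebf1 by 0.33 (95% interval -0.02 to 0.68). Some blood cell markers were lower in the transgenic infarcted hearts. The neutrophil sum was 147 to 163 in TG+MI and 305 to 501 in WT+MI hearts, with 3 of 5 markers called lower. The macrophage sum was 96.6 to 161 in TG+MI and 160 to 258 in WT+MI hearts, with 1 of 8 called lower. The part of these cells in the lipid gene differences was not tested.

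Of the 32 related genes 6 passed in TG+MI against WT+MI, 3 in each direction, which is 9.38% higher and 9.38% lower, beside 7.79% and 4.38% of all genes tested. Mlxipl had 3.13, 2.94 and 2.83 in TG+MI hearts, against 1.40, 1.93 and 2.17 in WT+MI hearts (difference 1.14 ± 0.18, adjusted p = 0.0239), Gpam was 0.80 (adjusted p = 0.0308) and Acss2, which makes acetyl-CoA from acetate, 0.62 (adjusted p = 0.0497). Lower were Soat1, with -0.14, 0.46 and -0.75 in TG+MI hearts, against 1.80, 1.09 and 0.89 in WT+MI hearts (difference -1.41 ± 0.30, adjusted p = 0.0285), Plin2 (-0.84, adjusted p = 0.0346) and Hsd17b12, a ketoreductase of chain elongation (-0.56, adjusted p = 0.0317). The comparison shares the WT+MI arrays with that of WT+MI against WT, and they enter the 2 differences with opposite signs.

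In transgenic mice, infarction was compared as TG+MI against TG hearts, where limma called 0 of the 36 genes (7 at an unadjusted p under 0.05). Of all genes tested 8.85% were called, 5.21% higher and 3.64% lower. The median difference was -0.07, beside 0.04. The smallest adjusted p belonged to Srebf1, with 3.74, 3.48 and 4.11 in TG+MI hearts, against 3.22, 3.08 and 3.42 in TG hearts and a difference of 0.54 ± 0.16 (adjusted p = 0.0600). Without TG+MI 2 it was 0.69 and passed (adjusted p = 0.0423). Lpin1 was next, at -0.56 (adjusted p = 0.0835), and passed without WT+MI 1 (adjusted p = 0.0281), an array that enters only through the shared error. Fdft1 differed by 0.10 (95% interval -0.33 to 0.53), Dgat2 by -0.13 (95% interval -0.68 to 0.42), Acacb by -0.25 (95% interval -0.81 to 0.31) and Abcg1 by 0.30 (95% interval 0.03 to 0.57). Acaca turned with TG 1. Its difference was -0.16 with all arrays (adjusted p = 0.856) and 0.53 without TG 1 (adjusted p = 0.0284). Of the 32 related genes 4 rose, 12.5% beside 5.21% of all genes tested. They were Ch25h (4.09, adjusted p = 0.000603), Plin2 (0.87, adjusted p = 0.0291), Mid1ip1, an activator of acetyl-CoA carboxylase (0.83, adjusted p = 0.0136), and Lpin2, a relative of Lpin1 (0.63, adjusted p = 0.0471). Neutrophil sums were 147 to 163 in TG+MI and 116 to 126 in TG hearts, and the atrial sum was at most 322 in TG+MI and 477 to 1495 in TG hearts. By marker, 4 of 5 for neutrophils were called higher (median 4.03). For fibroblasts 3 of 6 were called lower (median -1.06) and for macrophages 2 of 8 (median -0.60), with 0 higher in either. The 6 tested fat markers, all above background on every TG array and 2 on every TG+MI array, had a median of -4.06 (0 called in limma, 4 at an unadjusted p under 0.05). The part of these cells in the lipid gene differences was not tested.

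Whether the response to infarction differed between the genotypes was tested as an interaction, the TG+MI minus TG difference less the WT+MI minus WT difference. Of the 36 genes 4 passed, 3 higher and 1 lower, 11.1% beside 8.9% of all genes tested. By direction, 8.33% were higher and 2.78% lower, beside 5.85% and 3.05% of all genes. The median was 0.16, beside 0.14. For Fdft1 the response was 0.10 in TG and -1.17 in WT mice, a difference of responses of 1.27 ± 0.27 (adjusted p = 0.0358), with 1.25 on its second probe (adjusted p = 0.0411). For Abcg1 it was 0.30 in TG and 1.08 in WT mice (-0.78 ± 0.17, adjusted p = 0.0362). For Mvk it was -0.01 in TG and -0.57 in WT mice (0.56 ± 0.14, adjusted p = 0.0434), with 0.23 on the second Mvk probe (adjusted p = 0.558). The brighter Srebf2 probe gave 0.73 ± 0.18 (adjusted p = 0.0415) and the other probe -0.34 (adjusted p = 0.460).

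On their brightest probes, Dgat2 and Lpin1, called in 2 of the other comparisons, had interactions of 1.06 (adjusted p = 0.0767) and 0.83 (adjusted p = 0.0665) and did not pass. A second Lpin1 probe, well above background on all 12 arrays, gave 1.01 and passed (adjusted p = 0.0297 over all passing probes), while its remaining probes gave 0.69 (adjusted p = 0.416) and -0.12 (adjusted p = 0.818). With slide as a block limma called 0 of the 36 interactions (4 at an unadjusted p under 0.05) and 3 of all genes tested. The values with the block were 1.21 for Fdft1, -0.81 for Abcg1, 0.46 for Mvk and 0.79 for Srebf2. None of the 4 calls was kept through every omission of 1 array. In limma 0 of the 36 genes passed without WT 1, WT 2, WT 3, WT+MI 1, TG 1, TG 2 or TG+MI 1 (6 to 9 at an unadjusted p under 0.05). Only 1 passed without WT+MI 2, and 7 passed without WT+MI 3. Over all genes tested, 58 to 389 passed under the omissions that left 0 of the 36. Without WT+MI 2 there were 672 and without WT+MI 3 2262, against 1758 with all arrays. Of the 32 related genes 4 passed, 12.5% beside 8.9% of all genes tested. They were Mlxipl at 1.11 and Mid1ip1 at 0.87 on the higher side and Soat1 at -1.93 and Hsd17b12 at -0.83 on the lower. In TG hearts without infarction the signals of Fdft1 and Mvk lay below every WT value. Those differences of -0.46 (adjusted p = 0.243) and -0.25 (adjusted p = 0.228) did not pass, but enter the interaction. For the brighter Srebf2 probe the larger part came from uninfarcted hearts. It differed by -0.59 between TG and WT hearts and by 0.14 between TG+MI and WT+MI hearts. Some cell marker lists had negative medians in the interaction, beside 0.14 over all genes tested: the median over tested markers was -7.78 for atrium (1 of 4 called, lower), -4.28 for fat (0 of 6 called in limma, 3 at an unadjusted p under 0.05), -1.19 for macrophages (1 of 8 called, lower) and -0.91 for neutrophils (1 of 5 called, lower). Markers above background on every array numbered 4 for atrium and 6 for fat in TG hearts, and at most 2 and 3 in each other group. A marker high only in TG hearts could thus be tested through that group. No conclusion is therefore drawn from the atrial and fat medians. Fibroblast and hepatocyte markers also had negative medians, with -0.66 for fibroblasts (0 of 6 called in limma, 2 at an unadjusted p under 0.05). All 8 cardiomyocyte markers were positive, as were Fdft1 and Mvk, with a median of 0.38 and a lowest value of 0.23. In limma 0 of the 8 were called (2 at an unadjusted p under 0.05). For endothelium the median was 0.096, with values from -0.32 to 1.08 (1 of 5 called, higher). The part of these tissues and cells in the lipid gene interactions was not tested.

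**Figure D5:**
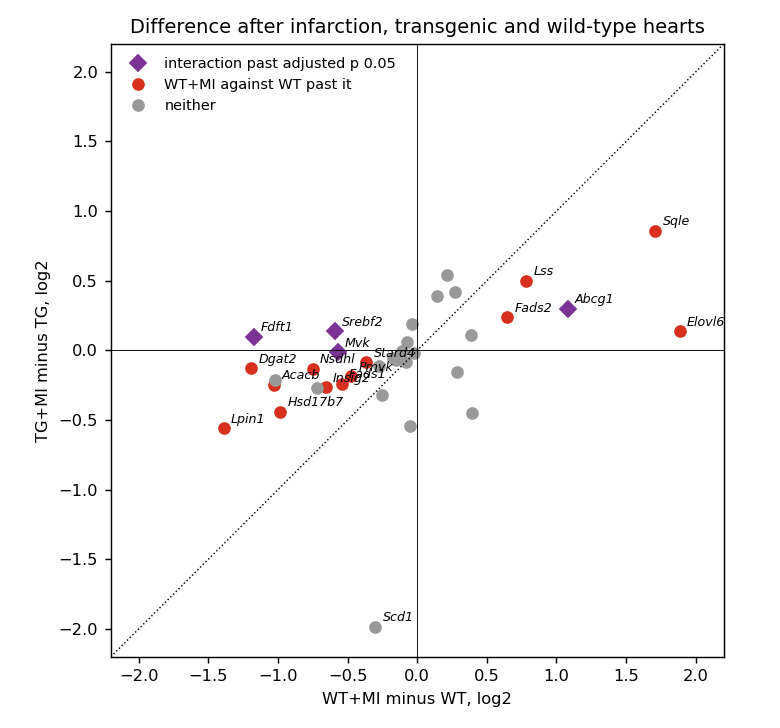
Infarction difference in TG hearts (TG+MI minus TG) and in WT hearts (WT+MI minus WT) for each of the 36 genes, in log2 units, with the 4 genes called in the interaction as diamonds and equal responses on the dotted line. Fdft1 lies at 0.10 in TG and -1.17 in WT hearts, and Abcg1 at 0.30 in TG and 1.08 in WT hearts.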

How the data were processed

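Arrays were Agilent one-colour (Cy3) gene expression arrays, 12 in all, each with 59305 spots that are not controls, for 56605 probes. Intensity was deposited as the background-subtracted processed signal of Agilent Feature Extraction 12.0.3.1, per the file headers, on a linear scale and not normalized between arrays; other columns deposited beside it flag outlier, saturated and well-above-background spots. A value table on a log2 scale was deposited by the authors, whose normalization is not given in the sources used here; its column medians were 4.21 to 4.22, its direction follows the intensities (rank correlation of each column with its own array at least 0.999), and it was used as an alternative. The submitters' processing notes name limma with no role. Probe coordinates are those of the files (mm9), and promoter sequences are from RefSeq (GRCm38.p6), with no conversion between builds.

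Log2 of the processed signal was averaged over the spots of a probe, without outlier spots, and each array's 75th percentile over probes was subtracted. Accessions named 32994 probes through the RefSeq table, symbols 10224 and synonyms 520, and 12867 kept the name in the files. The probe with the highest mean level stood for a gene, and a gene was tested if some group had that probe well above background on its 3 arrays. A group-means model over the 12 arrays was fitted with limma 3.58.1 in R 4.3.3, with Benjamini-Hochberg adjustment over 19761 genes and a threshold of 0.05; errors beside differences are standard errors. The fit was tested on simulated data. Values per array are given for Srebf1, Srebf2, Insig1, Hmgcs1, Sqle, Abca1, Fasn and Scd1 and for up to 8 genes in each direction and comparison with the largest differences past the threshold, and up to 4 related genes in each direction and comparison are named. The genes, lists and markers were chosen with earlier results of these data known. Alternatives were quantile normalization, normexp with an offset of 50, the deposited value table, no filter on dim probes, the mean of all probes of a gene, slide and replicate number as blocks, 1 slide alone and each array left out; every passing probe by itself was added after the data were seen.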

Additional observations from a re-analysis of the deposited data

Results flagged for a closer look

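Among the 36 genes, 4 were singled out because their response to infarction differed between transgenic and wild-type mice in the interaction test (limma, adjusted over 19761 genes). Squalene synthase, Fdft1, had a response 1.27 higher in TG than in WT mice (log2, adjusted p = 0.0358), and both of its probes gave it. The brighter probe of the sterol regulator Srebf2 gave 0.73 (adjusted p = 0.0415), which its second probe did not share. On the brighter probe TG differed from WT by -0.59 and TG+MI from WT+MI by 0.14. Mevalonate kinase, Mvk, gave 0.56 (adjusted p = 0.0434) and the cholesterol exporter Abcg1 -0.78 (adjusted p = 0.0362). In each, the difference between the TG+MI and TG means was smaller in size than that between the WT+MI and WT means. All TG+MI arrays lay on the second slide, and with slide as a block the adjusted p was 0.218 for Fdft1, 0.219 for Srebf2, 0.259 for Mvk and 0.210 for Abcg1, so that none passed.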

How the results depend on the processing

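In WT+MI against WT, the count of 17 called genes was 14 to 17 under the alternatives other than leaving 1 array out, with 17 under the replicate block. It was 15 to 19 with 1 array of any group left out. The 19 came without TG 1, which enters this comparison only through the shared error. The other counts were small and moved. TG against WT, with 1 call, gave 0 with normexp, without the filter on dim probes, with the mean of all probes, with slide as a block, on the first slide alone and with the replicate block, and 0 to 2 with 1 array left out. TG+MI against WT+MI, with 4 calls, gave 10 with normexp (9 higher and 1 lower, against 3 and 1), 0 without the filter, 0 with slide as a block, 5 with the replicate block, and 0 to 8 with 1 array left out. TG+MI against TG, with 0 calls, gave 1 with normexp and 0 to 2 with 1 array left out. The interaction, with 4 calls, gave 2 with normexp, 0 without the filter, 2 with the mean of all probes, 0 with slide as a block, 2 with the replicate block, and 0 to 7 with 1 array left out. Wherever 0 of the 36 genes were called, 1 to 11 had an unadjusted p under 0.05 in limma. Over all genes, TG+MI against WT+MI went to 14 calls without the filter, which tests 36981 genes, and to 0 with slide as a block, against 2405, and the interaction to 55 and 3, against 1758; slide as a block gave 119 calls, against 1749, in TG+MI against TG and 320, against 518, in TG against WT, which had 205 without the filter. Without the filter TG+MI against TG had 955, and the second slide alone, with 1 TG array, gave 0 (1694 at an unadjusted p under 0.05 in limma); the replicate block gave 342 in TG against WT and 1156 in the interaction. With 1 array left out, all-gene counts were 137 to 866 in TG against WT, 0 to 3524 in TG+MI against WT+MI (the 0 without TG+MI 1, with 5313 at an unadjusted p under 0.05 in limma), 690 to 2286 in TG+MI against TG and 58 to 2691 in the interaction. Quantile normalization and the authors' value table left the number of called genes as it was in all 5 comparisons, and none of 98 medians under the alternatives moved by more than 0.15.

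Directions of single genes turned with the probe, the slide or 1 array. Srebf2 in WT+MI against WT was 0.10 with the mean of all probes and 0.80 on its other probe, and its interaction was -0.34 there; Fads2 was -0.10 with the mean of all probes and -0.84 on its other probe; Lss was -0.36 on its other probe; Lpin1 in TG+MI against WT+MI was -0.11 on 1 of 4 probes; Acaca in TG+MI against TG, at -0.16, was 0.53 without TG 1, from -0.54 to 0.53 with any 1 array left out, and 0.44 with slide as a block and on the second slide alone. The second slide held TG 3 as its only TG array, so both slide alternatives set TG+MI against TG 3 alone. For the other genes the cause was not tested. Replicate numbers are shared between groups, but arrays of the same number did not deviate together (correlations from -0.26 to 0.12, and from -0.18 to 0.25 between other numbers), so that the replicate block pairs arrays that share only a number. Insig1, Sqle, Lss, Nsdhl, Elovl6, Scd1 and Fads2 lay below the 75th percentile of most arrays, and with 3 arrays a group the 95% intervals of Scd1, Scd4, Fasn, Elovl6 and Sqle in WT+MI against WT span over 2 log2 units.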

Other observations

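TG+MI 3 differed from the other TG+MI arrays in several sterol-handling genes, which were picked out after their values were seen. Abca1 was 3.02 on TG+MI 3, the highest of the 12 arrays, and Mylip, which encodes a ligase that marks lipoprotein receptors for breakdown, had 1.24, 1.5 and 2.73 in TG+MI and 1.02, 1.25 and 1.22 in WT+MI hearts. Srebf1, at 4.11, and Lpcat3, a remodelling enzyme of membrane phospholipids, at 4.10, 4.10 and 4.47 in TG+MI hearts, were also at their highest there, and all of these are known LXR targets. Abcg1, another such target, had 0.40, 0.38 and 0.47 in TG+MI hearts and did not stand apart on TG+MI 3. Nr1h3, which encodes LXR alpha, was lowest of its group on TG+MI 3, with 3.00, 2.87 and 2.38 in TG+MI hearts. Its second probe was lowest there too, with 1.74, 1.56 and 1.01. Genes not picked as LXR targets, such as Dgat2 at 7.67 and Me1 at 5.04, were also at their highest on TG+MI 3. A part of LXR was not tested. The summed signal of the 8 macrophage markers was lowest of all arrays on TG+MI 3, at 96.6, against 141 and 161 on TG+MI 1 and TG+MI 2; no test was made on this array.

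Scd4, a desaturase best known from the mouse heart, had 2.81, 2.14 and 2.98 in TG+MI, 2.34, 2.43 and 2.34 in WT+MI, 3.21, 2.54 and 2.82 in TG and 4.82, 2.40 and 2.95 in WT hearts on its brightest probe. WT 1 was the highest of the 12 arrays, and a second probe well above background on all 12 arrays differed between WT+MI and WT hearts by 0.19, against -1.02 on the brightest. Its dimmest passing probe was well above background on no WT+MI or WT array.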
